A study of Mus musculus with 12 samples.

Results

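Ccdc85b and the genes of the AP-1 family were followed across 12 RNA-seq libraries of SMCC, an immortalized mouse small cholangiocyte line. Cholangiocytes are the epithelial cells that line the bile ducts. The members were the rows of 8 genes out of the 24421 in the count table, namely Ccdc85b, its neighbour in the genome Fosl1, and Fosl2, Fos, Fosb, Jun, Junb and Jund. They were chosen by their counts, because Ccdc85b was well counted and much lower in the eGFP libraries than in the siCTL libraries, so the values of that contrast are a description here and carry no test.

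There were 4 groups of 3 libraries, and every group was transfected. The eGFP group received a plasmid for the fluorescent protein and the S45Y group a plasmid for a constitutively active β-catenin, both with Lipofectamine 3000 and for 48 h. The siCTL group received a control siRNA and the si-bcatenin group an siRNA against the β-catenin gene, both with Lipofectamine RNAiMAX and for 24 h. The plasmid and siRNA groups therefore differ in nucleic acid, reagent and hours at once, and these cannot be told apart. All libraries come from 1 immortalized line, and nothing in the labels says that replicates were separate cultures, so p-values measure the spread between these libraries, which may be technical.

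AP-1 is a family of dimeric transcription factors built from Jun and Fos proteins, which pair through a leucine zipper and bind short palindromic sites in DNA. Fos, Fosb, Jun and Junb are classical immediate early genes, switched on briefly after growth factors, stress or cytokines through MAP kinases, while Jund is present in resting cells and Fosl1 and Fosl2 follow later and last longer. In epithelia, Fosl1 (Fra-1) is known for its link to ERK signalling and cell motility. Ccdc85b encodes a small coiled-coil protein, also known as DIPA from its binding to hepatitis delta antigen, that binds catenins of the p120 family at adherens junctions and has been described as a brake on transcription by β-catenin and TCF.

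Ccdc85b and Fosl1 lie on top of each other on chromosome 19. In mm10 with the GENCODE M21 gene models, Ccdc85b runs on the minus strand from 5453180 to 5457894 and Fosl1 on the plus strand from 5447547 to 5455946. The exons of the pair share 1163 bases, which is 57.2% of the 2033 exon bases of Fosl1 and 24.7% of the 4715 exon bases of Ccdc85b. The shared bases are the last 2 of the 4 exons of transcript Fosl1-201, with 522 of its 819 coding bases, and they fall in the 3′ UTR of Ccdc85b, whose 606 coding bases are not overlapped. Neither the labels nor the methods used here state the strand setting of the counting, so a read from the shared exons cannot be assigned to one gene with certainty.

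**Figure D1:**
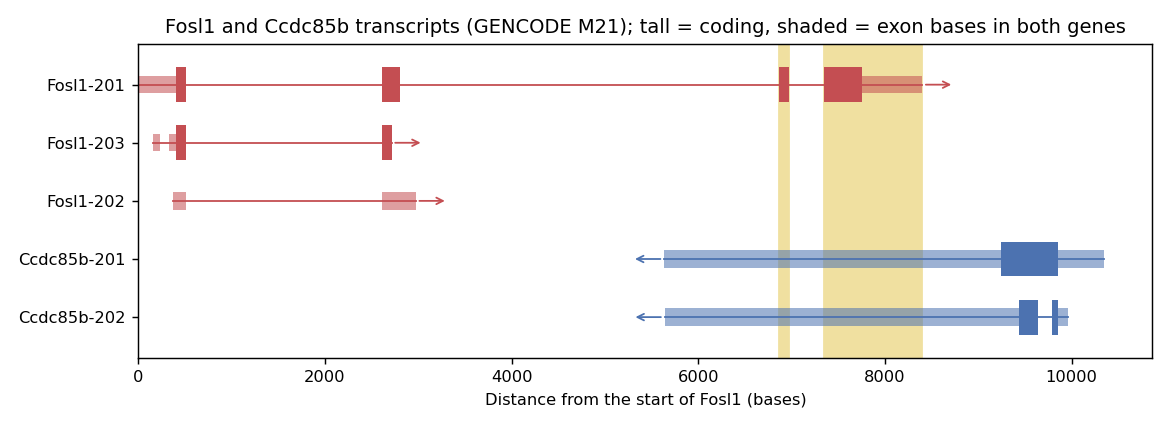
Transcripts of Fosl1 (red, read to the right) and Ccdc85b (blue, read to the left) from GENCODE M21, with distance from the start of Fosl1 in bases on the x axis. Tall boxes are coding, low boxes are untranslated, lines are introns, and shading marks the 1163 exon bases that both genes hold, which are in the end of Fosl1-201 and in the untranslated end of Ccdc85b.

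The other members lie apart from this pair. Fosl2 runs on chromosome 5 from 32135801 to 32157842, Fos on chromosome 12 from 85473890 to 85477273, and Fosb on chromosome 7 from 19302696 to 19310051, none of them with an exon shared with a gene on the other strand. Jun is on chromosome 4 (95049034 to 95052222) and shares 232 exon bases with the antisense gene Junos. Junb is on chromosome 8 (84974484 to 84978718) and shares 173 exon bases with Prdx2, a peroxiredoxin gene with 72 counts over all libraries. Jund is also on chromosome 8 (70698949 to 70700616) and shares 877 of its 1668 exon bases with the antisense gene Gm11175. Junos and Gm11175 have no row in the count table used here.

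The promoters of the AP-1 genes are themselves known targets of AP-1 and CREB proteins, so the sequences upstream of the members were searched for such sites. RefSeq promoters on GRCm38.p6, from 250 bases before to 50 after the start, were at hand for 7 members, without Fosl1. Both strands were searched. The 28-base windows around every match in the members are shown 5′ to 3′ on the strand of the gene, with the match in capitals.
Jun, AP-1 and CRE site, chr4:95052250-95052277, minus strand: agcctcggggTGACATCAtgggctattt
Fos, CRE core site, chr12:85473813-85473840, plus strand: gttccgcccagTGACGTaggaagtccat
Jun, CCAAT box, chr4:95052271-95052298, minus strand: aacgacgcaagCCAATgggaaagcctcg
Junb, CCAAT box, chr8:84978768-84978795, minus strand: tcccgcgtcggCCAATcggagtgcactt
Ccdc85b, CCAAT box on the other strand, chr19:5457596-5457623, minus strand: agactttctggATTGGctgttcttgggc

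The match in Jun to TGACNTCA stood 45 bases upstream of the start, and this motif was in 8.83% of all 32851 promoters of the table. The match in Fos to TGACGT stood 66 bases upstream, and 7.51% of the promoters held that motif. These motifs can overlap each other, and they matched in different genes here. CCAAT, the box bound by the factor NF-Y, was found 36 bases upstream of the RefSeq start in Junb and 65 in Jun, and in 37.4% of all promoters. In Ccdc85b it stood 49 bases upstream of the RefSeq start, but that start lies 331 bases inside the GENCODE model given above, so the match is 282 bases downstream of the start of that model and within the transcribed gene. The AP-1 site TGANTCA, in 7.81% of all promoters, and the TCF site CTTTGAT, in 3.73%, had no match in the 7 windows. A match is a string of letters and says nothing of binding in these cells.

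The libraries held few counts assigned to genes, which sets what can be seen of each member. The 3 eGFP libraries held 113481 to 122304 counts, the S45Y libraries 91468 to 117419, the siCTL libraries 221767 to 326686 and the si-bcatenin libraries 295677 to 313074. The ribosomal RNA precursor Rn45s took 12.6% ± 2.69 of the counts in eGFP and 12.9% ± 2.47 in S45Y, against 4.31% ± 1.03 in siCTL and 2.15% ± 0.463 in si-bcatenin (SD, n = 3 each). Depth and this share thus move with the kind of transfection, and their part in the results was not tested. Ctnnb1, the silenced gene, had 13, 38 and 28 counts in siCTL and 0, 11 and 3 in si-bcatenin, where all 3 libraries were below those of siCTL on the CPM scale. In the plasmid groups the gene was at 6, 11 and 10 (eGFP) against 11, 4 and 18 (S45Y) counts, and these overlapped. Of 14 cholangiocyte markers, the keratins Krt18, Krt8 and Krt19 were well counted with 1150, 589 and 365 counts over all libraries, while Krt7 had 24 and Sox9 14, and Epcam, Cftr, Aqp1 and Ggt1 were at 0 in all 12. Of the markers of other cell types, 7 of 10 for hepatocytes (Alb among them), 7 of 10 for leukocytes (Ptprc among them), 5 of 10 for fibroblasts and stellate cells and 3 of 8 for endothelium (Pecam1 among them) were at 0 in all 12. Other genes of the same lists were counted, with 412 counts over all libraries for Apoa2 of the hepatocyte list, 180 for Acta2 of the fibroblast and stellate list, 174 for Cd68 and 123 for Cd14 of the leukocyte list and 67 for Eng of the endothelial list.

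Most of the members' counts stood in the row of Ccdc85b. It held 8423 of the 9290 counts of the 8 members, or 90.7%, and ranked 28 of 24421 genes by total count. The 7 AP-1 genes held 867 counts together, of which Fosl1 had 310 (35.8%), Junb 301 (34.7%) and Jund 185 (21.3%). Fosl2 had 42, Jun 23, Fos 4 and Fosb 2. Most counts in the AP-1 rows were thus in 3 of the 7 genes. Of the classical immediate early genes, Fos, Fosb and Jun were near the floor of 3 counts that a count of 0 allows in a library, while Junb, with 301 counts, was not. These are counts of rows as the table names them. If a strand-marking library had been counted with the opposite setting, the row of Ccdc85b would hold Fosl1 reads from the shared exons, the row of Fosl1 would hold Ccdc85b reads, and the values given below for each would belong to the other. With the rows of this pair alone exchanged, Fosl1 would hold 8423 of 8980 AP-1 counts (93.8%), most of them in 1 gene. The other AP-1 rows are kept as named in that total. The opposite setting would apply to them too, so 93.8% is not the share under it. The strand setting was not tested.

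Ccdc85b was high in both siRNA groups and low in both plasmid groups. In the siRNA-treated cells its counts were 1254, 1262 and 1145 in siCTL and 1492, 1440 and 1294 in si-bcatenin. In the plasmid-treated cells they were 92, 125 and 82 in eGFP and 86, 67 and 84 in S45Y. Every siRNA library was far above every plasmid library, and the same order stood after scaling for depth.

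Scaled by TMM to counts per 1000000 counts of the genes kept by the filter (CPM), Ccdc85b was at 6170, 4203 and 4191 in siCTL, and at 5610, 5130 and 4632 in si-bcatenin. It was at 871, 1148 and 856 in eGFP and at 1096, 767 and 814 in S45Y. In order of their means, the groups were si-bcatenin at 5124 ± 489 CPM, siCTL at 4854 ± 1139, eGFP at 958 ± 164 and last S45Y at 892 ± 178 (SD, n = 3 each). The libraries of si-bcatenin and siCTL overlapped, and so did those of eGFP and S45Y. Between the adjoining groups siCTL and eGFP, the contrast by which the gene was chosen, the means differed 5.07-fold without overlap.

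**Figure D2:**
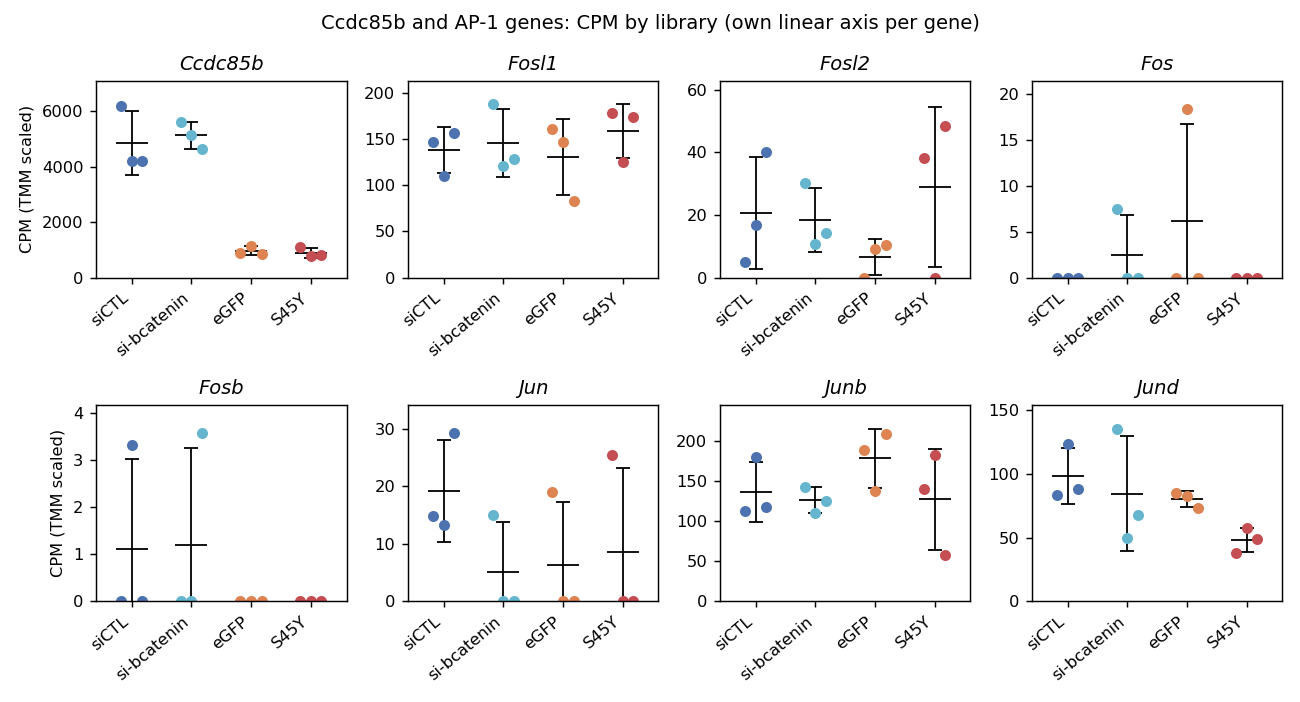
CPM (TMM scaled, linear axes from 0, own axis for each gene) of the 8 members in every library, with points for the libraries of siCTL, si-bcatenin, eGFP and S45Y and black bars for the mean ± SD (n = 3), whose lower end is clipped at 0 where it would pass below. Ccdc85b lies between 4191 and 6170 CPM in the siRNA libraries and between 767 and 1148 in the plasmid libraries, while the libraries of Fosl1 and Junb overlap between neighbouring groups.

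The 6 libraries that the choice did not use gave the same picture with a test. From si-bcatenin to S45Y, Ccdc85b fell by 2.51 on the log2 scale (SE 0.14, 95% interval -2.80 to -2.22), or 5.69-fold, with an adjusted p of 1.21e-16 from edgeR's quasi-likelihood test. All 3 S45Y libraries were below all 3 si-bcatenin libraries, and the two-sided exact permutation test of the log2 CPM gave p = 0.1, the smallest that 3 against 3 can give. In this comparison 557 of 2702 genes tested passed an adjusted p of 0.05, or 20.6%, with 238 higher and 319 lower in S45Y, and the libraries did not overlap with S45Y lower in 19.6% of the genes. Ccdc85b had the 13th lowest log2 fold change of the 2702 genes, and the 11th lowest of the 2592 with a mean of at least 50 CPM. Plasmid against siRNA, 48 h against 24 h and active against silenced β-catenin differ together here and cannot be told apart. In cultured cells measured in bulk, fewer cells of a kind and less RNA per cell cannot be told apart either.

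Among the other members that could be tested in S45Y against si-bcatenin, none passed the test. Fosl1 had a log2 fold change of 0.15 (SE 0.34, 95% interval -0.54 to 0.85, edgeR adjusted p = 0.811). Junb had a log2 fold change of -0.00022, with an interval of -0.63 to 0.63 on the log2 scale (edgeR adjusted p = 0.999). Its SE was 0.31 here, against 0.39 with RLE size factors and 0.43 in DESeq2, so that interval may be too narrow. Jund was at -0.77 (SE 0.55, interval -1.89 to 0.34, edgeR adjusted p = 0.350), but it had 3, 5 and 5 counts in S45Y and barely passed the filter on low counts, with 1 S45Y and 2 si-bcatenin libraries over its minimum of 48.4 CPM. It left the test when any si-bcatenin library was left out, so little rests on its value. Thus 1 of the 4 members that passed the filter was called, where 11.8% of all genes tested were called lower, and the intervals of Fosl1 and Junb leave out -2.51.

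The changes of β-catenin within 1 kind of transfection did not move Ccdc85b past the test. These comparisons are those of the study, which silenced or activated β-catenin to ask which genes follow it, and each shares 1 group with the contrast that chose the gene. From siCTL to si-bcatenin the log2 fold change of Ccdc85b was 0.06 (SE 0.10, 95% interval -0.15 to 0.26, edgeR adjusted p = 0.890), where 54 of 3484 genes were called, or 1.55%. From eGFP to S45Y it was -0.07 (SE 0.19, interval -0.45 to 0.31, edgeR adjusted p = 0.989). There 0 of 1819 genes were called by edgeR, or 0%, with 107 at an unadjusted p under 0.05, and 0 by DESeq2, with 166. The edgeR intervals reach a 1.20-fold higher level after silencing and a 1.37-fold lower level after activation. After silencing DESeq2 gave a log2 fold change of 0.08 with an SE of 0.21, against 0.10 from edgeR. The bound of 1.20-fold therefore depends on the test, and a larger rise is within the spread that DESeq2 gives. The siCTL libraries were the least even, since replicate 1 was at 6170 CPM and the others at 4203 and 4191. Without that library the log2 fold change after silencing was 0.28 (edgeR adjusted p = 0.133), over 1.5 times the value with it and still not past the test, and without any one of siCTL replicates 2 and 3 or si-bcatenin replicate 1 it was below 0, between -0.04 and -0.0048.

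Fosl1 was the most counted of the Fos family. Its counts were 30, 33 and 43 in siCTL, 50, 34 and 36 in si-bcatenin, 17, 16 and 8 in eGFP, and 14, 11 and 18 in S45Y. On the CPM scale these were 148, 110 and 157 in siCTL, and 188, 121 and 129 in si-bcatenin. They were 161, 147 and 83.5 in eGFP, and 178, 126 and 174 in S45Y. Every group overlapped its neighbours in the order of means, which ran from S45Y at 160 ± 29.2 CPM over si-bcatenin at 146 ± 36.6 and siCTL at 138 ± 25.1 to eGFP at 130 ± 41.3 (SD, n = 3 each). The log2 fold change of Fosl1 was 0.06 after silencing (SE 0.27, interval -0.48 to 0.61, edgeR adjusted p = 0.966) and 0.32 after activation (SE 0.45, interval -0.58 to 1.22, edgeR adjusted p = 0.989), so that a change of 2-fold after activation was within its interval.

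The levels of the overlapping pair were thus unlike in size and in their order over the groups. Per kilobase of exon, Ccdc85b was at 1087 CPM per kb in si-bcatenin, 1030 in siCTL, 203 in eGFP and 189 in S45Y. Fosl1 was at 71.8 CPM per kb in si-bcatenin, 68.0 in siCTL, 64.2 in eGFP and 78.5 in S45Y. If the shared exons gave no reads to either row, as when a counter sets aside ambiguous reads, the lengths that count are 3552 and 870 bases. The levels were then 1443, 1367, 270 and 251 CPM per kb for Ccdc85b and 168, 159, 150 and 183 for Fosl1, in the same order of groups. On both lengths Ccdc85b was the higher of the pair in every group. That order rests on the names of the rows. With the rows of the pair exchanged, as under the opposite strand setting, and divided by the 1163 shared bases, Fosl1 would stand at 4406, 4174, 824 and 767 CPM per kb in si-bcatenin, siCTL, eGFP and S45Y and Ccdc85b at 126, 119, 112 and 137.

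**Figure D3:**
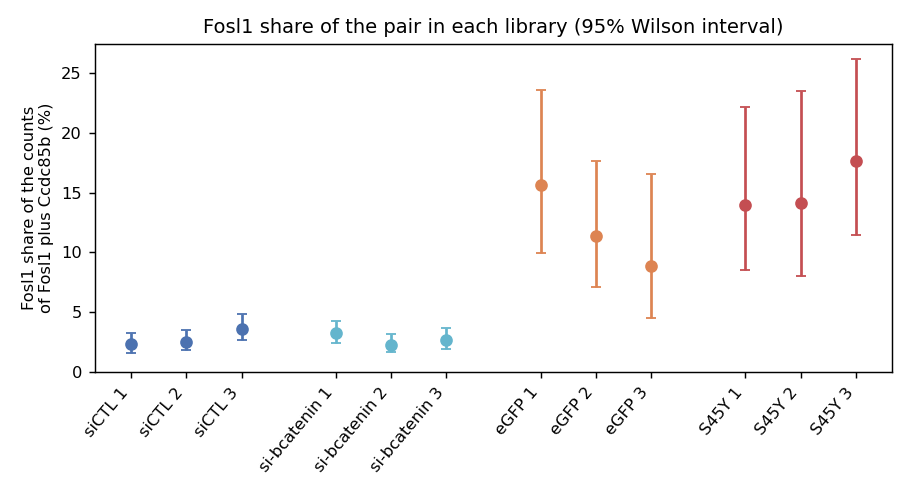
Share of Fosl1 in the counts of Fosl1 plus Ccdc85b (percent, linear axis from 0) in each of the 12 libraries, with 95% Wilson intervals that cover counting error only. The siRNA libraries lie between 2.31% and 3.62% and the plasmid libraries between 8.89% and 17.6%.

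The share of Fosl1 in the counts of the pair does not depend on the scaling of the libraries. It was 2.34%, 2.55% and 3.62% in siCTL and 3.24%, 2.31% and 2.71% in si-bcatenin. In the plasmid groups it was 15.6%, 11.3% and 8.89% in eGFP and 14.0%, 14.1% and 17.6% in S45Y. The lowest plasmid library, eGFP replicate 3 with 8 of 90 counts, had a Wilson interval of 4.57% to 16.6%, and the highest siRNA library, siCTL replicate 3 with 43 of 1188, one of 2.70% to 4.84%, so that these intervals alone overlap slightly. Reads of the same library are not independent molecules, and such intervals cover counting error only.

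By groups, the share was 2.75% ± 0.470 in si-bcatenin, 2.83% ± 0.688 in siCTL, 11.9% ± 3.39 in eGFP and 15.2% ± 2.08 in S45Y (mean ± SD of 3 libraries). S45Y exceeded si-bcatenin by 12.5 percentage points without overlap (two-sided exact permutation test, p = 0.1, the smallest possible). After silencing the difference was -0.083 points (exact permutation p = 0.8) and after activation 3.31 points (exact permutation p = 0.3). With the rows exchanged, the share of Fosl1 would be 97.2% in si-bcatenin, 97.2% in siCTL, 88.1% in eGFP and 84.8% in S45Y, and these differences would change sign, with S45Y lower than si-bcatenin by 12.5 points. When the rows of Ccdc85b and Fosl1 were summed into 1, the pair was lower in S45Y than in si-bcatenin by a log2 fold change of -2.31 (edgeR adjusted p = 9.98e-16), against -2.51 for Ccdc85b alone.

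Fosl2, the other late Fos gene, was sparse. It had 1, 5 and 11 counts in siCTL, 8, 3 and 4 in si-bcatenin, 0, 1 and 1 in eGFP, and 3, 0 and 5 in S45Y. The ratio of its pooled levels was 1.64 for S45Y over si-bcatenin, with an exact binomial interval of 0.601 to 4.11 for counting error only, and 4.61 for S45Y over eGFP, with 0.921 to 44.6. The spread within siCTL, from 4.92 to 40.3 CPM, was as wide as that between groups, and the exact permutation p was 0.9, 1 and 0.4 for S45Y against si-bcatenin, silencing and activation.

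Fos and Fosb, the immediate early members of the Fos family, were at the limit of these libraries. Fos had 2 counts in eGFP replicate 2, 2 in si-bcatenin replicate 1 and 0 in the other 10 libraries. Fosb had 1 count in siCTL replicate 2, 1 in si-bcatenin replicate 3 and 0 in the others. A count of 0 allows up to 3 counts, which is 27.5 to 38.2 CPM in the plasmid libraries and 9.99 to 14.8 CPM in the siRNA libraries. No difference was detectable for these genes at these counts, and no fold is given. Whether depth, the strand setting or a low level keeps the counts small was not tested.

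In the Jun family, Junb was the best counted by the names of the rows. This factor often opposes Jun on shared targets. Its counts were 23, 54 and 32 in siCTL, 38, 31 and 35 in si-bcatenin, 20, 15 and 20 in eGFP, and 11, 16 and 6 in S45Y. By mean it stood at 179 ± 36.7 CPM in eGFP, 137 ± 37.4 in siCTL, 127 ± 63.5 in S45Y and 126 ± 16.2 in si-bcatenin (SD, n = 3 each), and each group overlapped the next. S45Y replicate 3, with 6 counts and 58.1 CPM, was below every other library, and the other S45Y libraries were at 140 and 183. The log2 fold change of Junb was -0.15 after silencing (SE 0.27, edgeR adjusted p = 0.895) and -0.47 after activation (SE 0.45, interval -1.37 to 0.43, edgeR adjusted p = 0.989). Prdx2, its partner on the other strand, had at most 15 counts in any library. With the rows of Junb and Prdx2 exchanged, Junb would hold 72 counts over all libraries, against 185 in the row of Jund as named.

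Jund, the Jun protein of resting cells, had 17, 37 and 24 counts in siCTL and 36, 14 and 19 in si-bcatenin. It had 9, 9 and 7 in eGFP and 3, 5 and 5 in S45Y. The means were 98.2 ± 21.7 CPM in siCTL, 84.4 ± 45.04 in si-bcatenin, 80.3 ± 6.42 in eGFP and 48.0 ± 9.50 in S45Y (mean ± SD of 3 libraries). S45Y and eGFP were the only neighbours in this order that did not overlap, with 38.2 to 57.2 CPM against 73.0 to 85.2. The pooled ratio of S45Y over eGFP was 0.600, with an exact binomial interval of 0.282 to 1.22 from 13 and 25 counts, and the exact permutation p was 0.1, the smallest possible. Jund did not pass the filter on low counts in that comparison, where the libraries did not overlap with S45Y lower in 6.1% of the genes tested. After silencing its log2 fold change was -0.26 (SE 0.35, edgeR adjusted p = 0.844).

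Jun, the partner of most Fos proteins and a target of the kinase JNK, had 3, 4 and 8 counts in siCTL, 4, 0 and 0 in si-bcatenin, 2, 0 and 0 in eGFP, and 2, 0 and 0 in S45Y. It was thus counted in all 3 siCTL libraries and in 1 library of each other group. The ratio of si-bcatenin over siCTL was 0.251, with an exact binomial interval of 0.0606 to 0.787 that covers counting error only, from 4 and 15 counts. Over libraries the exact permutation test gave p = 0.3, since si-bcatenin replicate 1 at 15.04 CPM was within the siCTL range of 13.3 to 29.3.

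Summed over the 7 AP-1 genes, the level was 364 to 446 CPM in siCTL, 292 to 519 in si-bcatenin, 376 to 455 in eGFP and 329 to 420 in S45Y. These ranges overlapped in every pair of groups for the rows as named. With the row of Ccdc85b in the place of that of Fosl1, the sums would be 4465 to 6386 CPM in siCTL, 4843 to 5940 in si-bcatenin, 1148 to 1396 in eGFP and 969 to 1338 in S45Y, and the siRNA and plasmid libraries would not overlap. The other AP-1 rows are kept as named in these sums, although the opposite strand setting would apply to them too. As a description of the contrast that chose the members, Ccdc85b was lower in eGFP than in siCTL by a log2 fold change of -2.30 (SE 0.14), the 10th lowest of 2459 genes, where 16.9% of the genes were called. In the same contrast Fosl1 was at -0.03, Junb at 0.40 and Jund at -0.26.

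**Figure D4:**
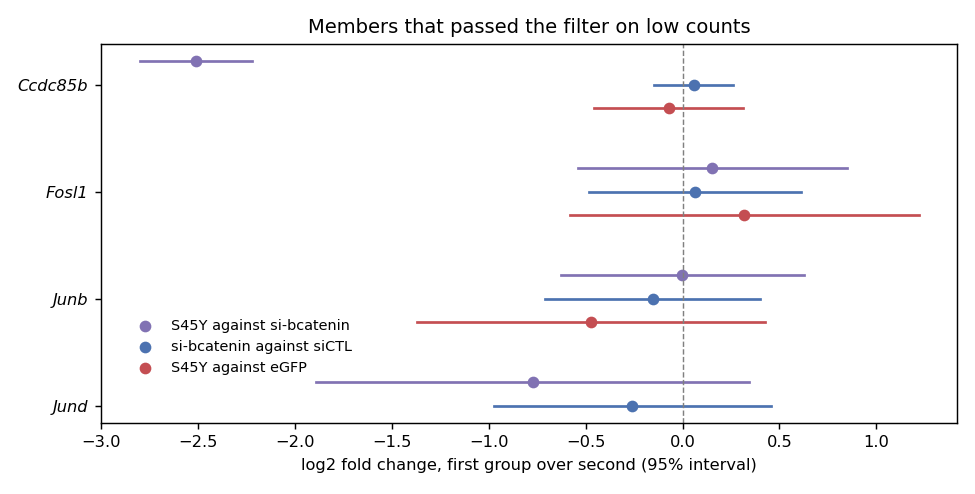
Log2 fold change (points) with its 95% interval (lines) from edgeR for the members that passed the filter, in S45Y against si-bcatenin (purple), si-bcatenin against siCTL (blue) and S45Y against eGFP (red), where Jund did not pass. Ccdc85b in S45Y against si-bcatenin, at -2.51, is the only one whose interval leaves out 0.

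None of the genes around the pair that could be tested fell with Ccdc85b. Within 25000 bases, the table holds Fosl1, Fibp, Ctsw, Efemp2 and Mus81. Fibp, which binds a fibroblast growth factor, had 8 counts over all libraries, and Efemp2, an elastic fibre protein gene, had 59, and neither passed the filter. Ctsw, a cathepsin gene, had a log2 fold change of -0.10 in S45Y against si-bcatenin (SE 0.53, edgeR adjusted p = 0.931), 0.16 without S45Y replicate 1. Mus81, a DNA repair endonuclease gene, was at 78.7 ± 6.21 CPM in si-bcatenin and 163 ± 39.0 in S45Y (SD, n = 3 each), a log2 fold change of 1.05 (SE 0.39) with an adjusted p of 0.0496 from edgeR. That call was lost in 11 of 13 alternatives, including each fit without 1 library, with adjusted p up to 0.500. Mus81 shares 173 exon bases with Efemp2 on the other strand, so its counts are uncertain too.

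Genes elsewhere in the genome had a pattern closer to that of Ccdc85b than Fosl1, Jund or Junb. Likeness was measured as the root mean square difference of log2 CPM over the 12 libraries, after centring each gene on its mean, among 2771 genes with a mean of at least 50 CPM, for which the median was 1.30. The nearest was E230016M11Rik, a non-coding gene on chromosome 6 from 67036599 to 67080654, at 0.278. Mfsd3, a transporter gene on chromosome 15 (76701465 to 76704239), followed at 0.486, and 1700019B03Rik, named Tex45 in RefSeq, at 0.499. Prss12, a neuronal serine protease gene on chromosome 3 (123446913 to 123506597), was at 0.527 and 1600012H06Rik on chromosome 17 (14943184 to 14959570) at 0.530. Jund was at 1.09, rank 650, Fosl1 at 1.25, rank 1237, and Junb at 1.37, rank 1662. Fosl2, Fos, Fosb and Jun were below the minimum of 50 CPM and were not compared.

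All 5 of these genes were higher by mean in both siRNA groups than in both plasmid groups, as their choice by likeness over the 12 libraries fixes, and the size of the difference varied between them. E230016M11Rik was at 13619 ± 1289 CPM in siCTL and 17371 ± 280 in si-bcatenin, against 3483 ± 90.4 in eGFP and 2731 ± 468 in S45Y (mean ± SD of 3 libraries). Since the search used all 12 libraries, the log2 fold changes from si-bcatenin to S45Y are a description, and they were -2.64 for E230016M11Rik, -2.03 for Mfsd3, -2.37 for 1700019B03Rik, -1.86 for Prss12 and -1.59 for 1600012H06Rik. The value of 1700019B03Rik, with 6, 1 and 2 counts in S45Y, was -3.53 without S45Y replicate 1. In the exons, 4 of the 5 overlap a gene on the other strand. E230016M11Rik does so with the stress gene Gadd45a over 337 bases, Mfsd3 with the helicase gene Recql4 over 422, Prss12 with Gm35065 over 157 and 1600012H06Rik with Phf10, a chromatin remodelling subunit, over 470, while 1700019B03Rik has no entry by that name in the annotation. Among the genes compared for pattern, 56.7% of the 2664 in the annotation have such a partner, against 24.1% of the 23384 table genes in it. The rows of the 4 pattern genes with a partner are uncertain in the same way as those of the pair. Under the opposite strand setting, the row of E230016M11Rik would hold Gadd45a reads from the shared exons.

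**Figure D5:**
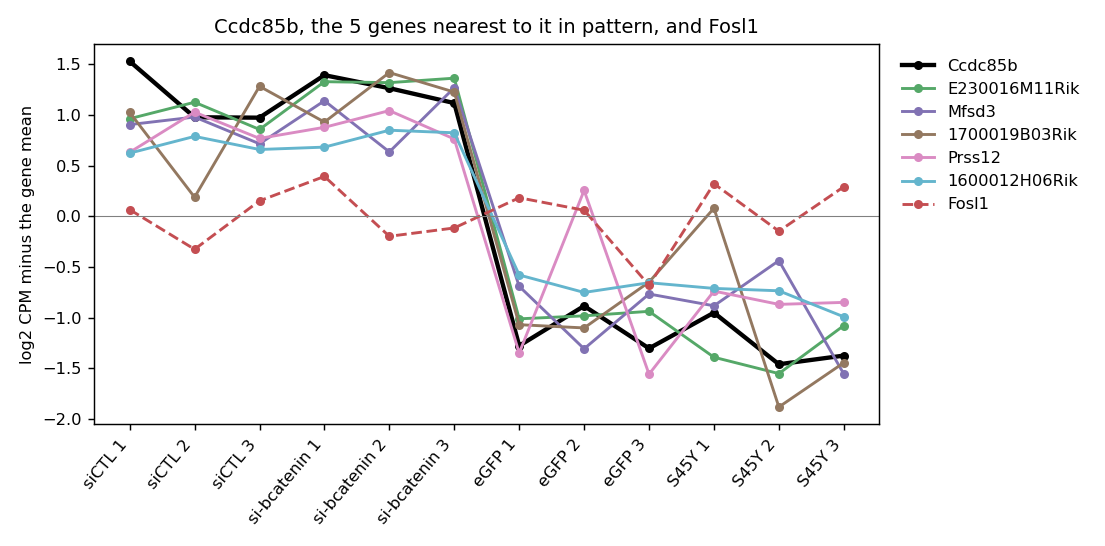
Log2 CPM minus the gene's mean over the 12 libraries (y axis) in each library (x axis) for Ccdc85b (thick black), the 5 genes nearest to it and Fosl1 (dashed red). Ccdc85b and the 5 genes are above 0 in all siRNA libraries and, except for Prss12 in eGFP replicate 2 and 1700019B03Rik in S45Y replicate 1, below 0 in the plasmid libraries, while Fosl1 stays within 1 of its mean.

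The wider AP-1 network was read from lists of genes drawn up for this report, with counts of genes called in S45Y against si-bcatenin, where 20.6% of all genes were called. After silencing, 0 of the 52 list genes tested were called by edgeR, with 6 at an unadjusted p under 0.05, and 0 by DESeq2, with 5. After activation, 0 of 31 were called by edgeR, with 1 at an unadjusted p under 0.05, and 0 by DESeq2, with 2. Of 31 dimer partners and related leucine zipper factors, 12 were tested, of which 1 rose and 2 fell, and the median log2 fold change was -0.65 against 0.02 over all genes tested. Cebpb, a factor of inflammation and differentiation that also stands on the list of Ccdc85 family genes and partners, fell by 0.77 on the log2 scale, from 595 ± 16.7 to 339 ± 76.0 CPM (SD, n = 3 each, edgeR adjusted p = 0.00841). Ddit3 (CHOP), a factor of the endoplasmic reticulum stress response, fell by 1.37, from 594 ± 75.4 to 227 ± 12.3 CPM (edgeR adjusted p = 4.18e-05). Maff, a small Maf protein, rose from 110 ± 13.8 to 248 ± 56.3 CPM, by 1.19 (edgeR adjusted p = 0.00608), and its call was lost without S45Y replicate 1 (0.0571), without S45Y replicate 3 (0.0661) and without the filter on low counts (0.151).

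Upstream of AP-1, 7 of 36 genes of the MAP kinase cascade were tested and 1 was called, with a list median of -0.09. Mapk12, which encodes the p38γ kinase, was higher in S45Y at 155 ± 105 CPM against 53.2 ± 16.6 (SD, n = 3 each), a log2 fold change of 1.59 (edgeR adjusted p = 0.0134). It passed the filter with 2 S45Y libraries and 1 si-bcatenin library over the minimum, and its call was lost without S45Y replicate 2 (0.0790), without S45Y replicate 3 (0.274) and without the filter (0.0788). The log2 fold change itself was 1.04 without S45Y replicate 3 and 1.93 without S45Y replicate 1. Of 31 other immediate early genes, 29 were in the table, 3 were tested and 1 fell, with a median of -0.20. That was Gadd45a, a growth arrest and DNA damage gene, with a log2 fold change of -0.88 (edgeR adjusted p = 0.00711, 0.0647 without S45Y replicate 3), and its exons overlap those of E230016M11Rik, the gene nearest in pattern to Ccdc85b, which had 26805 counts against its 970.

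Of 42 genes described as AP-1 targets, 11 were tested, of which 2 rose and 3 fell, 1 of these being Areg, with a median of -0.13. Areg, the EGF receptor ligand amphiregulin, had 78, 107 and 104 counts in si-bcatenin and 5, 0 and 5 in S45Y, so it passed the filter only through si-bcatenin, where it was high, and its S45Y libraries lay near the floor of 3 counts. Its call is therefore read as a description, with a pooled ratio of S45Y over si-bcatenin of 0.106 and an exact binomial interval of 0.0504 to 0.198 for counting error only. Vegfa, the angiogenic factor, fell by 0.88 (edgeR adjusted p = 0.00300) and Ccna2, cyclin A2, fell by 0.65 (edgeR adjusted p = 0.00124). Vim, the intermediate filament vimentin, rose by 1.45 (edgeR adjusted p = 0.000655), and Spp1, the matrix protein osteopontin, rose by 1.35 (edgeR adjusted p = 0.000492, 0.0525 without S45Y replicate 3). Ccna2 shares 510 exon bases with Exosc9 on the other strand, Cebpb 312 with Tmem189, Ddit3 68 with Mars and Krt8, described below, 101 with Gm36026, so their counts are uncertain in the same way as those of the pair. Of the 10 genes of the Ccdc85 family and the delta-catenin partners, 4 were tested and only Cebpb was called, with a median of -0.17.

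Of 14 cholangiocyte markers, 5 were tested, of which 3 rose from si-bcatenin to S45Y and 0 fell, with a median log2 fold change of 1.07, where 20.6% of all genes were called. The 3 that rose were Krt18 by 1.07 (edgeR adjusted p = 8.35e-05), Krt8 by 1.15 (edgeR adjusted p = 0.00104) and Spp1, whose call was lost without S45Y replicate 3. Krt19 was at 0.71 (edgeR adjusted p = 0.122) and Slc4a2, an anion exchanger gene, at -0.13 (edgeR adjusted p = 0.885). The summed level of the list was 1058 to 1462 CPM in siCTL and 983 to 1064 in si-bcatenin, against 1570 to 2263 in eGFP and 1819 to 2335 in S45Y. The summed markers of hepatocytes were at 160 to 261 CPM over the siRNA libraries and at 129 to 281 over the plasmid libraries. The summed leukocyte markers were at 180 to 218 CPM in si-bcatenin and lower without overlap in S45Y, at 80.1 to 165, while siCTL (98.8 to 157) and eGFP (83.5 to 184) overlapped. That sum rests on 3 of the 10 genes listed. Of all genes tested, 19.6% likewise did not overlap with S45Y lower than si-bcatenin. The fibroblast and stellate sums, 85.9 to 124 CPM in si-bcatenin and 57.2 to 87.2 in S45Y, overlapped, as did the endothelial sums, 48.9 to 89.1 and 0 to 58.1. In S45Y against si-bcatenin, 0 of the 3 hepatocyte, fibroblast and stellate, leukocyte or endothelial markers that edgeR could test was called, with 0 at an unadjusted p under 0.05 and 0 by DESeq2. The part of these shifts in the fall of Ccdc85b was not tested.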

How the data were processed

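RNA from 12 libraries of transfected SMCC was sequenced, 3 for each of eGFP, S45Y, siCTL and si-bcatenin as the labels give them. Per the study's methods and the submitters' processing notes, the authors checked reads with FastQC, trimmed them with Trimmomatic 0.38, aligned them to mm10 with HISAT2 2.1.0 and counted them per gene with HTSeq 0.11.2. The values deposited are these raw counts per gene symbol, without normalization and with replicates kept apart. The annotation, strand setting and read type are not given in the sources used here.

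In R 4.3.3, genes were filtered with filterByExpr (minimum count 10, total 15), scaled by TMM and tested with the quasi-likelihood test of edgeR 4.0.16, on the 6 libraries of each comparison, with Benjamini-Hochberg adjustment over all genes tested and a threshold of 0.05. CPM are per 1000000 counts of the genes kept over all 12 libraries. Permutation tests and pattern distances used log2 CPM with a prior count of 2. Groups at low counts were compared by pooled ratios with exact binomial intervals at 95%. Alternatives were DESeq2 1.42.0, which the study used, other scalings, no filter, no Rn45s row, 1 fit of all libraries, a replicate block, leaving out each library, and the summed pair of rows. Depth was 91468 to 326686 counts, so a count of 0 allows up to 3 counts. Replicates of a group differed by more than sampling noise, so none was counted as a duplicate. Positions are from GENCODE M21 and promoters from RefSeq. The scripts were tested on simulated data.

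Named genes were the 8 members, the 5 genes nearest to Ccdc85b in pattern, genes within 25000 bases of it, genes that overlap a member on the other strand, and list genes called in a tested comparison. The members and lists were chosen with earlier results of these data known. Proteins were not analysed here.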

Additional observations from a re-analysis of the deposited data

How the results depend on the processing

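In S45Y against si-bcatenin, Ccdc85b kept its direction and its call in all 14 alternatives run, with log2 fold changes between -2.83 and -2.31. The number of genes called there was 418 to 582, against 557, but without the filter on low counts 89 were higher and 468 lower, against 238 and 319, and the median log2 fold change of all genes was -0.18, against 0.02. After silencing, 54 genes were called, and 31 to 49 without 1 library, with 34 without siCTL replicate 1, 31 without si-bcatenin replicate 2 and 32 without si-bcatenin replicate 3, where fewer libraries were fitted. None of the other members was called in any of the 100 alternatives run.

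Values near 0 changed sign without a call, and the cause was not tested. Leaving out 1 library at a time, Ccdc85b lay between -0.037 and 0.28 after silencing and between -0.26 and 0.066 after activation, and the Fosl1 share of the pair differed by -0.33 to 0.31 points after silencing. After activation that share differed by 1.78 points without eGFP replicate 3 to 5.13 without eGFP replicate 1, against 3.31. Fosl1 was at 0.065 without eGFP replicate 3 to 0.48 without eGFP replicate 1, against 0.32, and Junb at -0.86 without S45Y replicate 2 to -0.12 without S45Y replicate 3, against -0.47. In the silencing fits Fosl1 lay between -0.15 and 0.19, Junb between -0.27 and 0.11 and Jund between -0.76 and 0.015 after silencing. In S45Y against si-bcatenin, Fosl1 lay between -0.0099 and 0.42, Junb between -0.47 and 0.33 and Ctsw between -0.52 and 0.16. Junb was also at 0.029 with RLE size factors and 0.013 without the Rn45s row, and Fosl1 at -0.17 without the filter.

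The replicate numbers were tested as a pairing. Deviations of libraries with the same number correlated between -0.050 and 0.031 over genes in the 3 tested comparisons, and in none of them did every library correlate best with its own number, so the numbers do not pair the libraries. With the replicate block, 468 genes were called in S45Y against si-bcatenin, 64 after silencing and 0 after activation. Ccdc85b then stood at -2.51, 0.08 and -0.07.

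After the data were seen, the ratio and share of the pair were also computed with its rows exchanged. The log2 ratio of Ccdc85b over Fosl1 in CPM per kb, 3.92 in si-bcatenin, 3.92 in siCTL, 1.66 in eGFP and 1.27 in S45Y, was then -5.13, -5.13, -2.88 and -2.48. The Fosl1 share of the pair then differed by -12.5 points in S45Y against si-bcatenin, 0.083 after silencing and -3.31 after activation. With the rows as named, the log2 ratio of Ccdc85b over Fosl1 on the exon bases outside the overlap was 3.10 in si-bcatenin, 3.10 in siCTL, 0.85 in eGFP and 0.45 in S45Y.

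The small counts of Fos, Fosb, Jun and Fosl2 limit what can be said of them, and with 3 libraries a group the exact permutation test cannot pass 0.05.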
